A study of Mus musculus with 10 samples.

Results

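The genes described here are 9 that interferon-gamma is known to switch on in mouse cells: the enzymes Wars, Ido1 and Gch1, the immunity-related GTPases (IRG) Irgm1, Irgm2, Igtp and Iigp1, and the guanylate-binding proteins (GBP) Gbp2 and Gbp3. They were taken by symbol from an expression table of 23360 named genes, with the brightest transcript cluster (the array's unit for 1 gene) standing for each symbol. Of the 9, 8 had a transcript cluster of their own, and Gbp2 was found on 1 that also carries Gbp1. The study asked how host immunity shapes a tumour, using B16OVA, a mouse melanoma line of C57BL/6 origin that carries chicken ovalbumin (OVA) as a tumour antigen. Total RNA of 10 lines was hybridised to 1 Affymetrix MoGene-2_0-st array each. GKO-IMM lines 1, 2 and 3 were variants recovered from OVA-immunized mice that lack interferon-gamma. IMM lines 1, 2 and 8 came from OVA-immunized B6 mice with intact interferon-gamma, NIMM lines 1, 3 and 4 from naive B6 mice, and the parent is the starting line. Per the series design, IMM lines grew progressively when put back into OVA-immunized mice, and GKO-IMM and NIMM lines did not. The interferon-gamma deficiency was the host's, the labels name no interferon-gamma treatment of the lines before RNA extraction, and they do not say whether a line is 1 clone or which lines came from separate mice. P-values therefore measure the spread between these lines only.

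Interferon-gamma binds a receptor that activates the kinases JAK1 and JAK2, and the signal reaches GAS motifs in DNA and raises the transcription of IRF1 and many effector genes. IRF1 binds a second motif, the interferon-stimulated response element (ISRE). Among the effectors, IDO1 breaks down tryptophan, WARS (tryptophanyl-tRNA synthetase) charges tRNA with it, GCH1 makes the first committed intermediate of tetrahydrobiopterin, and the IRG and GBP proteins act on the vacuoles of intracellular pathogens.

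Melanocyte markers were bright in all lines: 7 of 7 (such as Tyrp1, Dct and Pmel, which make or shape melanin) were above background, with summed intensities of 26946 to 27858 in GKO-IMM, 27138 to 29293 in IMM and 26867 to 28062 in NIMM lines, and 27948 in the parent. Ptprc, the pan-leukocyte antigen CD45, lay between 20.5 and 22.2 in the 9 established lines and at 20.3 in the parent, within background. Cd68 and Nkg7 were above background, 2 of 9 leukocyte markers, as were 4 of 7 fibroblast and 2 of 4 endothelial markers. Array medians were close, at 31.9 to 32.5. NIMM 4 stood apart from its group: the SD across genes of its log2 difference was 0.229 to NIMM 1 and 0.221 to NIMM 3, against 0.125 between NIMM 1 and NIMM 3. By the same measure NIMM 4 was nearer to the GKO-IMM lines (0.152 to 0.171) than to its own group. It was farthest from the IMM lines (0.234 to 0.248). Leaving out NIMM 4 moved several of the values below, and for some of these the value without it stands beside them.

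The GTPase genes carry the interferon motif close to their starts. In RefSeq's promoter windows on build GRCm38.p6 (250 bases before to 50 after each annotated start), 6 of the 9 genes had an entry, Gbp3 with 2 starts. The ISRE core GAAANNGAAA, searched on both strands with overlapping matches kept, was present for all 5 GTPase genes with an entry, at the first of the 2 Gbp3 starts. It was absent from the windows of the second Gbp3 start and of Gch1. Of all 32851 promoter windows, 1131 (3.44%) held it. The palindromic GAS motif TTCNNNGAA was in the Igtp and Irgm2 windows, and in 8.30% of all windows. Both motifs together were in 0.454% of windows. The stretches around the ISRE core, the motif found in all 5 of these GTPase genes, are shown. Each is 60 bases in the direction of transcription, with the bases of the ISRE core in capitals. In Gbp3 and Gbp2 the core reads on the opposite strand, and in Gbp3 and Irgm1 a pair of matches overlaps.
Gbp3, chr3:142559977-142560036, plus strand: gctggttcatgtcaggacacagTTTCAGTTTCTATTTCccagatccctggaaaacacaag
Gbp2, chr3:142620579-142620638, plus strand: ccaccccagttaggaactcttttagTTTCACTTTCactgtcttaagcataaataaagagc
Irgm1, chr11:48871421-48871480, minus strand: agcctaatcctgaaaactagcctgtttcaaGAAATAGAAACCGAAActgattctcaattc
Igtp, chr11:58199496-58199555, plus strand: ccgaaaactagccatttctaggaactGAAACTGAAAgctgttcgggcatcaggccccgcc
Irgm2, chr11:58214888-58214947, plus strand: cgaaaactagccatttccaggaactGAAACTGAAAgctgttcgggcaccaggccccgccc
The Igtp and Irgm2 windows aligned over 270 columns with 244 identical bases (90.4%), so their matches are not independent. The Irgm1 window aligned with that of Igtp over 77 columns, at 71.4% identity. Shorter alignments of other pairs gave as high a share, such as 75% over 20 columns for Gbp3 and Gch1. A match describes the letters of a window and does not show that a factor binds there.

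**Figure D1:**
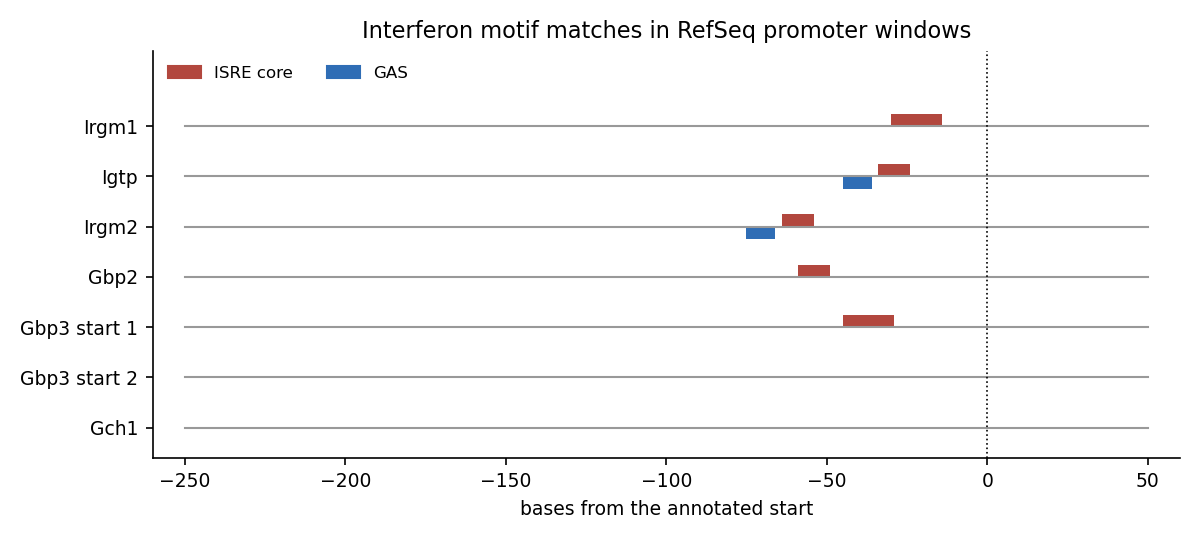
Positions of ISRE core (red) and GAS (blue) matches in the RefSeq promoter windows of 6 genes; the horizontal axis is the distance in bases from the annotated start, and each grey line is 1 window of 250 bases before to 50 after it. The ISRE cores of the 5 GTPase genes lie from 64 to 15 bases before the start, and no match of either motif is in the Gch1 window or that of the second Gbp3 start.

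On the arrays most of the GTPase genes were at or near background. Background was taken from 1384 olfactory and vomeronasal receptor genes, which a melanoma line is not known to use: their median intensity was 19.8 and their 95th percentile 31.6 (log2 4.98). Of the 8 genes with their own transcript cluster, 4 had a mean over the 9 established lines above that percentile, namely Wars, Ido1, Irgm1 and Gch1. Against the 99th percentile (45.2) it was 3, since Ido1 lay below. Igtp, Iigp1 and Gbp3 were above the 95th percentile on 0 of 10 arrays, and Irgm2 on 1. Brightness depends on each probe set, so these levels rank no gene against another. Each array measured RNA pooled over a line's cells, so fewer expressing cells and less RNA per cell cannot be told apart.

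**Figure D2:**
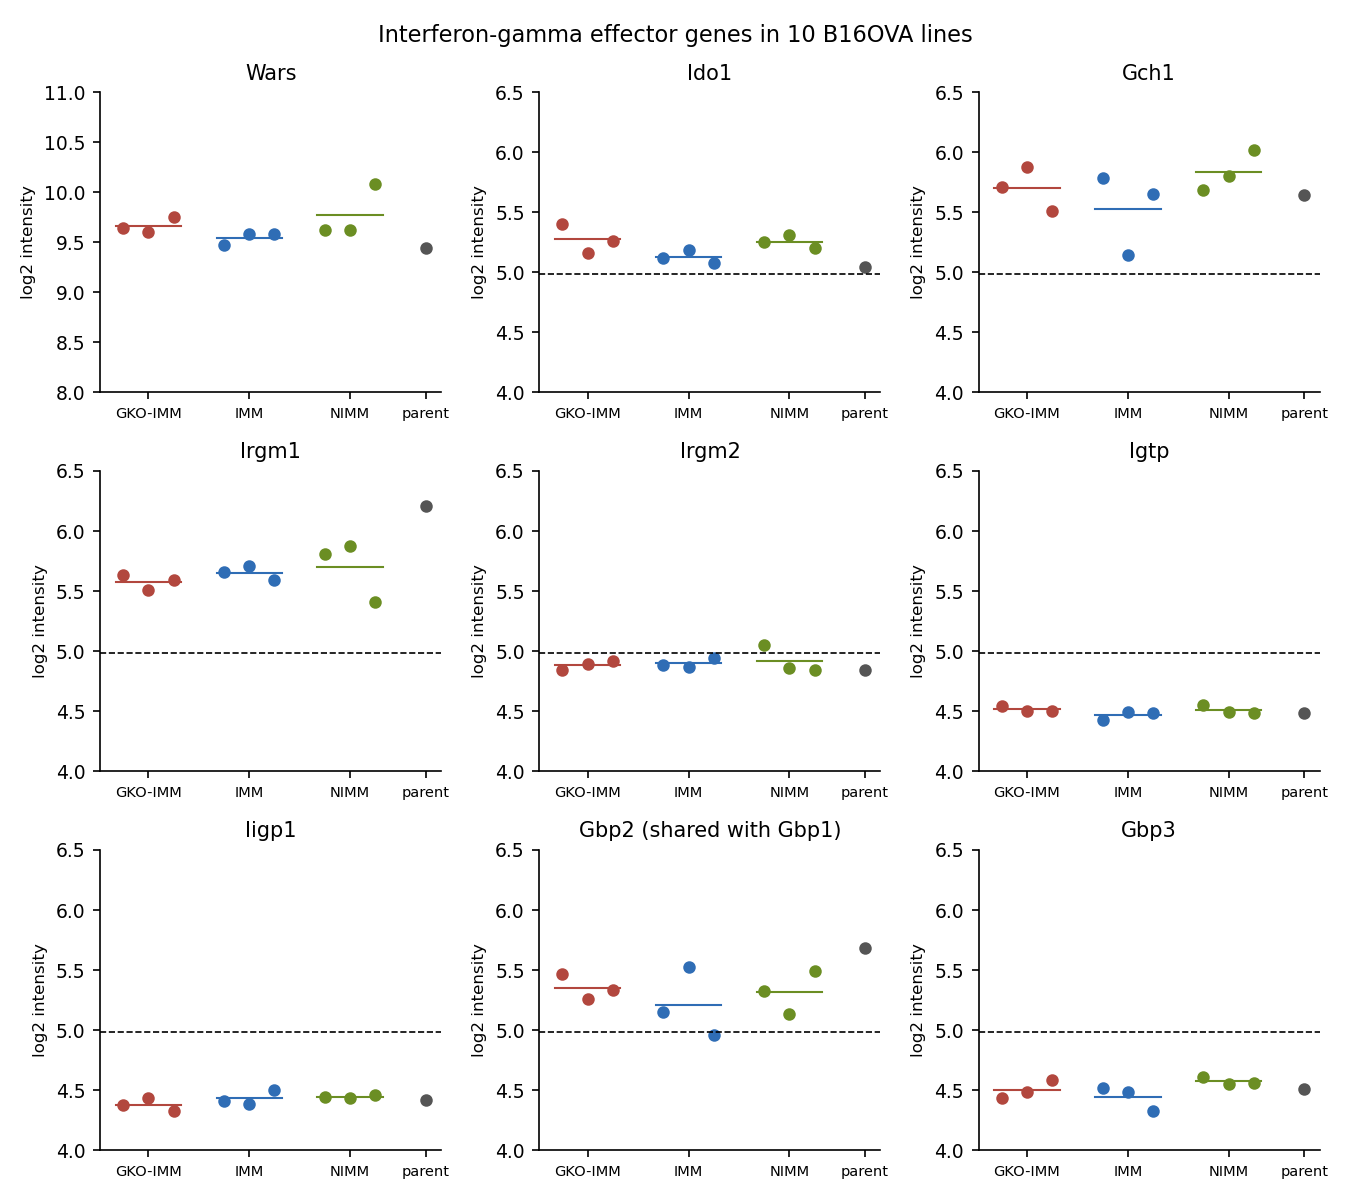
Log2 intensity (vertical axis) of the 9 genes on each of the 10 arrays, 1 point a line; horizontal bars are means of 3 lines, and the dashed line is the 95th percentile of the receptor genes at 4.98. Wars is drawn on a higher range of the axis, where the dashed line does not appear, and is above its level on every array; Igtp, Iigp1 and Gbp3 stay below it on every array.

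Wars was far above background on every array. The gene lies at chr12:108860030-108894175 (GRCm38), and its enzyme is needed for protein synthesis in every cell as well as being interferon-inducible. Its intensity was 797, 775 and 864 in GKO-IMM lines 1, 2 and 3, 709, 766 and 768 in IMM lines 1, 2 and 8, 786, 788 and 1081 in NIMM lines 1, 3 and 4, and 697 in the parent. The 3 IMM lines lay below all 3 GKO-IMM and all 3 NIMM lines, and NIMM 4 was the highest of the 10. Of all genes tested, 25.8% had no overlap between GKO-IMM and IMM lines and 18.6% none between IMM and NIMM lines. The share with neither overlap was not counted. On the log2 scale IMM averaged 9.54 ± 0.07 and NIMM 9.77 ± 0.26 (SD, n = 3 each), and the difference did not pass (log2 difference -0.23 ± 0.11 SE, 95% interval -0.47 to 0.01, limma adjusted p = 0.380). GKO-IMM averaged 9.66 ± 0.08, which was 0.12 above IMM (interval -0.12 to 0.36, limma adjusted p = 0.635) and 0.11 below NIMM (difference -0.11, interval -0.35 to 0.13, limma adjusted p = 0.697).

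The high NIMM mean of Wars came from 1 line. NIMM 4 was 0.46 above the mean of NIMM 1 and NIMM 3 on the log2 scale, and 3.79% of all genes tested moved at least that far in either direction. Without NIMM 4 the IMM minus NIMM difference of Wars was -0.08 (limma adjusted p = 0.665), and GKO-IMM minus NIMM changed sign, to 0.04. Wars belongs to the tRNA synthetases, many of which the amino acid stress factor ATF4 also activates, so both lists were read line by line as medians of log2 intensity around each gene's mean of the 9 lines. Of 20 other synthetases 18 were tested, and their median was 0.24, 0.20 and 0.22 in GKO-IMM lines 1, 2 and 3, -0.19, -0.13 and -0.07 in IMM lines 1, 2 and 8, and -0.29, -0.16 and 0.27 in NIMM lines 1, 3 and 4. The 17 tested of 20 ATF4 targets gave 0.67, 0.54 and 0.59 in GKO-IMM, -0.52, -0.53 and -0.26 in IMM and -0.79, -0.61 and 0.79 in NIMM lines. Both lists were high in the 3 GKO-IMM lines and in NIMM 4. Wars itself was at -0.02, -0.06 and 0.09 in GKO-IMM, -0.19, -0.08 and -0.08 in IMM and -0.04, -0.04 and 0.42 in NIMM lines, so it stood with these lists in NIMM 4 and close to its own mean in GKO-IMM lines. In NIMM 4 against NIMM 1 and NIMM 3, 16 of 18 synthetases were higher (median 0.53, 9 of them by more than Wars) and 17 of 17 ATF4 targets (median 1.51). That Wars differs from these lists in GKO-IMM lines was not tested.

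**Figure D3:**
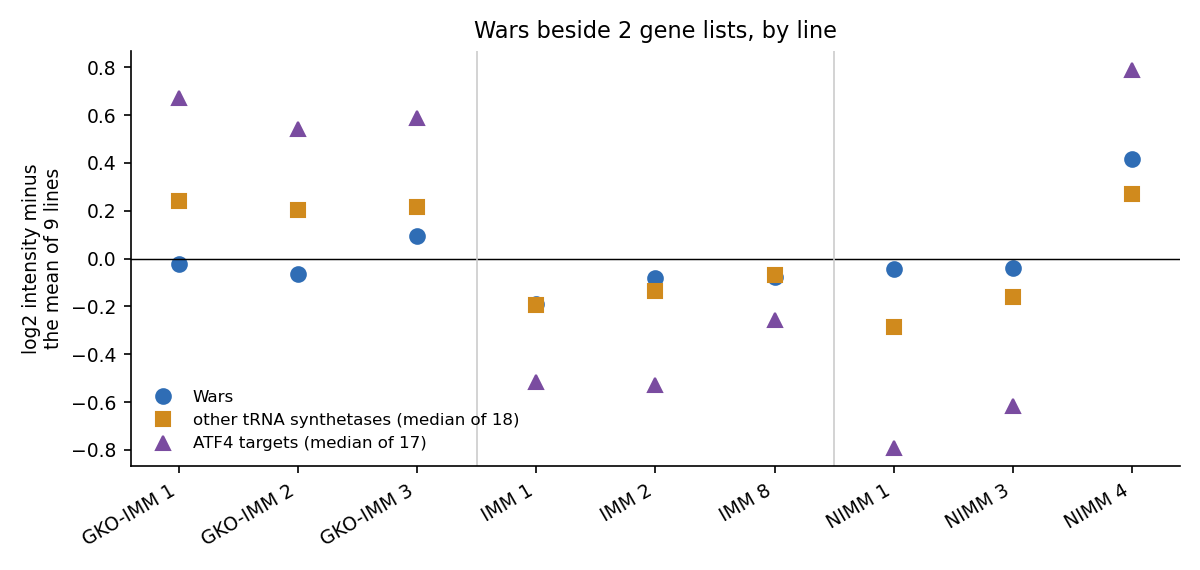
Wars (circles) and the medians of 18 other tRNA synthetases (squares) and 17 ATF4 targets (triangles) in each of the 9 established lines; the vertical axis is log2 intensity minus the gene's mean over the 9 lines. All 3 symbols are above 0 in NIMM 4, while in GKO-IMM lines the lists' medians are 0.20 to 0.67 and Wars is between -0.06 and 0.09.

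Among synthetases and ATF4 targets none passed between GKO-IMM and IMM lines. An unadjusted limma p under 0.05 was reached by 12 of 18 and 15 of 17, and by 17.2% of all genes tested. The lists' median differences were 0.39 and 0.99, against -0.01 over all genes tested. The SE here also takes in the spread of the NIMM lines, in which NIMM 4 stood apart on both lists. Of all genes tested 191 passed in this comparison, against 1208 without NIMM 4 and 976 with only the groups compared. The absence of calls holds for the fit with all NIMM lines. Genes of these lists that passed in the other fits were not counted. The smallest adjusted limma p-values among the synthetases were those of Vars, the valine enzyme (0.42 ± 0.10 SE, adjusted p = 0.0687), and Mars1, the methionine enzyme (0.38 ± 0.10, adjusted p = 0.0917). Among ATF4 targets they were those of Phgdh, which opens serine synthesis (0.72 ± 0.16, adjusted p = 0.0548), and Slc7a5, an importer of large neutral amino acids including tryptophan (0.83 ± 0.20, adjusted p = 0.0704). In IMM minus NIMM the medians were -0.05 for the synthetases and -0.37 for the ATF4 targets, and without NIMM 4 both changed sign, to 0.09 and 0.15.

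Ido1, whose enzyme opens the kynurenine pathway of tryptophan breakdown, was only just above background. It lies at chr8:24584133-24596952, and its intensity was 42.2, 35.7 and 38.3 in GKO-IMM lines 1, 2 and 3, 34.6, 36.3 and 33.7 in IMM lines 1, 2 and 8, 38.1, 39.6 and 36.8 in NIMM lines 1, 3 and 4, and 33.0 in the parent. All 10 arrays were above the 95th percentile of the receptor genes and 0 above the 99th. The IMM lines lay below every NIMM line, where 18.6% of all genes tested had no overlap between these groups. The IMM and GKO-IMM lines overlapped. IMM averaged 5.12 ± 0.05 and NIMM 5.25 ± 0.05 on the log2 scale (SD, n = 3 each), a difference of -0.13 ± 0.07 SE (interval -0.29 to 0.03, limma adjusted p = 0.432). GKO-IMM averaged 5.27 ± 0.12, 0.15 above IMM (interval -0.01 to 0.30, limma adjusted p = 0.313). Against the mean of the other groups, IMM was at -0.14 (interval -0.27 to -0.0041), with an unadjusted limma p of 0.0445 and an adjusted p of 0.292. At this brightness a difference of this size corresponds to a few intensity units.

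Around Ido1, 11 genes of tryptophan breakdown were on the array and 6 were tested, with 0 passing in any comparison. Between GKO-IMM and IMM lines 3 of 6 had an unadjusted limma p under 0.05, as did 17.2% of all genes tested. Kyat3, which converts kynurenine to kynurenic acid, was 0.29 ± 0.08 SE higher (limma adjusted p = 0.106), and Ido2, the paralog of Ido1, was at -0.19 ± 0.06 (adjusted p = 0.156). The aryl hydrocarbon receptor, which kynurenine activates, and its targets gave 6 tested genes and 0 calls. Nqo1, a quinone reductase that other stress pathways also induce, had the smallest p among them (0.92 ± 0.23, limma adjusted p = 0.0834), with intensities of 76.5, 68.6 and 77.2 in GKO-IMM and 37.6, 46.2 and 34.2 in IMM lines. NIMM 4 also had the highest Nqo1 intensity of its group, at 86.8 against 38.1 in NIMM 1 and 47.9 in NIMM 3. Tiparp, a target that represses the receptor in turn, was at -0.26 ± 0.09 SE in GKO-IMM against IMM lines (limma adjusted p = 0.183).

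Gch1, above background on all 10 arrays, overlapped between all groups. It lies at chr14:47153895-47189413, and its intensity was 52.4, 58.6 and 45.6 in GKO-IMM lines 1, 2 and 3, 55.0, 35.3 and 50.2 in IMM lines 1, 2 and 8, 51.5, 55.7 and 64.9 in NIMM lines 1, 3 and 4, and 49.9 in the parent. IMM 2 was the lowest and NIMM 4 the highest of the 10. IMM averaged 5.52 ± 0.34 and NIMM 5.84 ± 0.17 on the log2 scale (SD, n = 3 each), a difference of -0.31 ± 0.15 SE (interval -0.65 to 0.03, limma adjusted p = 0.388). GKO-IMM averaged 5.70 ± 0.18 and was 0.17 above IMM (interval -0.16 to 0.51, limma adjusted p = 0.617). Without IMM 2 that difference was -0.02, so its sign rested on that line. Without NIMM 4 the IMM minus NIMM difference of Gch1 was -0.22 (limma adjusted p = 0.579). Of 13 other genes that make, recycle, regulate or use tetrahydrobiopterin, 10 were tested and 0 passed. Between GKO-IMM and NIMM lines Nos2, the inducible nitric oxide synthase that needs this cofactor, was 0.25 ± 0.06 SE higher (limma adjusted p = 0.128), at intensities of 32.2 to 35.2 in GKO-IMM and 27.1 to 29.2 in NIMM lines, above and below the background threshold. Pcbd2, which helps to recycle the cofactor, was at -0.28 ± 0.07 (limma adjusted p = 0.154).

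Irgm1, a regulatory GTPase that keeps the effector IRG proteins inactive on the cell's own membranes, was the one IRG gene of the set above background. It lies at chr11:48865245-48871420. Its intensity was 49.7, 45.6 and 48.2 in GKO-IMM lines 1, 2 and 3, 50.4, 52.4 and 48.2 in IMM lines 1, 2 and 8, 56.2, 58.6 and 42.6 in NIMM lines 1, 3 and 4, and 73.9 in the parent. NIMM held both the highest and the lowest of the established lines. On the log2 scale GKO-IMM averaged 5.58 ± 0.06, IMM 5.65 ± 0.06 and NIMM 5.70 ± 0.25 (SD, n = 3 each). The differences were -0.05 for IMM minus NIMM (interval -0.28 to 0.18, limma adjusted p = 0.870), -0.07 for GKO-IMM minus IMM (interval -0.30 to 0.16, adjusted p = 0.784) and -0.12 for GKO-IMM minus NIMM (interval -0.35 to 0.11, adjusted p = 0.644). NIMM 4 was at -0.43 from the mean of NIMM 1 and NIMM 3, and 4.31% of genes tested moved at least that far. Without NIMM 4, the IMM minus NIMM difference of Irgm1 was -0.19 (limma adjusted p = 0.249). In that fit its GKO-IMM minus NIMM difference was -0.26, with a limma adjusted p of 0.0391; over all alternatives to the fit the adjusted p ran from 0.0391 to 0.944. In the fit without NIMM 4, 7.73% of all genes tested passed, against 0.122% with NIMM 4.

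The other IRG genes of the set were at or near background. Irgm2, a second regulatory GTPase at chr11:58214977-58222783, had intensities of 28.7 to 30.2 in GKO-IMM, 29.1 to 30.7 in IMM and 28.7 to 33.1 in NIMM lines, and 28.6 in the parent. NIMM 1 was the 1 array above background, and the groups overlapped. Its differences were -0.02 for IMM minus NIMM (interval -0.17 to 0.13, limma adjusted p = 0.916), -0.01 for GKO-IMM minus IMM (interval -0.16 to 0.13, adjusted p = 0.952) and -0.03 for GKO-IMM minus NIMM (interval -0.18 to 0.11, adjusted p = 0.857). Igtp, the third regulatory GTPase (also called Irgm3, at chr11:58199556-58207592), spanned 22.6 to 23.4 in GKO-IMM, 21.5 to 22.5 in IMM and 22.3 to 23.4 in NIMM lines, with 22.4 in the parent. Iigp1 (chr18:60373616-60392634), an effector that coats and breaks the vacuoles of parasites, spanned 20.1 to 21.6 in GKO-IMM, 20.9 to 22.7 in IMM and 21.6 to 22.0 in NIMM lines, with 21.4 in the parent. Both were below the filter on dim genes (percentile 30 of all genes, intensity 26.7) and were not tested. Of 12 other IRG genes 7 were on the array and 2 tested, Irgq and Irgc1, with 0 calls.

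Gbp3 was below background on every array, and the cluster that holds Gbp2 was above it on most. Gbp3 (chr3:142560016-142573213) spanned 21.6 to 24.0 in GKO-IMM, 20.1 to 22.9 in IMM and 23.5 to 24.4 in NIMM lines, with 22.8 in the parent. The IMM lines lay below the NIMM lines, but the gene was too dim to be tested. Among genes tested, 18.6% had no overlap between IMM and NIMM lines. The transcript cluster shared by Gbp2 (chr3:142620663-142638008) and Gbp1 read 44.2, 38.2 and 40.4 in GKO-IMM lines 1, 2 and 3, 35.5, 46.1 and 31.1 in IMM lines 1, 2 and 8, 40.0, 35.2 and 45.0 in NIMM lines 1, 3 and 4, and 51.5 in the parent. It was above background on 9 of 10 arrays and the groups overlapped, but its signal cannot be assigned to 1 gene and it was not tested. Another cluster, labelled Gbp1 alone on the array (current symbol Gbp2b), read 21.6 to 28.3, below background on every array. Which gene gives the shared signal was not tested. Of 10 other GBP genes 9 were on the array and 3 tested, all 3 with means above background and with 0 calls. Gbp10 read 55.0 to 71.6 in GKO-IMM, 55.5 to 61.8 in IMM and 47.3 to 66.3 in NIMM lines, and 69.8 in the parent, above the 99th percentile of the receptor genes on every array. Gbp7 read 28.9, 29.1 and 28.4 in GKO-IMM and 42.4, 33.1 and 33.1 in IMM lines, a difference of -0.32 ± 0.09 SE (limma adjusted p = 0.111), with all GKO-IMM lines below background. Gbp9 was at -0.21 ± 0.08 in IMM against NIMM lines (limma adjusted p = 0.271).

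Across the comparisons none of the 5 genes tested passed. Between IMM and NIMM lines 0 of 5 passed, where 0.428% of all 16352 genes tested did (19 higher, 51 lower). Between GKO-IMM and IMM lines it was 0 of 5 against 1.17% (119 higher, 72 lower), and between GKO-IMM and NIMM lines 0 of 5 against 0.122% (6 higher, 14 lower). For IMM against the mean of the other groups it was 0 of 5 against 0.807%, and in limma's F test of any difference 0 of 5 against 1.02%. At an unadjusted limma p under 0.05 the counts were 0, 0, 0 and 1 of 5 in the 4 comparisons, where 14.1%, 17.2%, 13.9% and 16.4% of all genes reached it. The members' median differences were -0.13, 0.12, -0.11 and -0.14 in that order, against 0.02, -0.01, 0.01 and 0.01 over all genes tested. The comparisons share lines, so these values are not separate pieces of evidence. Groups did not overlap for Wars and Ido1 between IMM and NIMM (18.6% of all genes did not), for Wars between GKO-IMM and IMM (25.8%), and for 0 of 5 between GKO-IMM and NIMM (19.5%). With 5 genes these counts cannot be set apart from the background shares. All 15 intervals between pairs of groups held 0, and their farthest bound was 0.65 on the log2 scale, a 1.57-fold difference of intensity. The background level was not subtracted from the intensities, so this is no bound on the fold change of RNA. Leaving out 1 line gave 21 to 76 genes that passed in IMM minus NIMM, 30 to 1208 in GKO-IMM minus IMM and 6 to 1264 in GKO-IMM minus NIMM, each highest without NIMM 4, and of the members only Irgm1 passed in any of these fits.

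**Figure D4:**
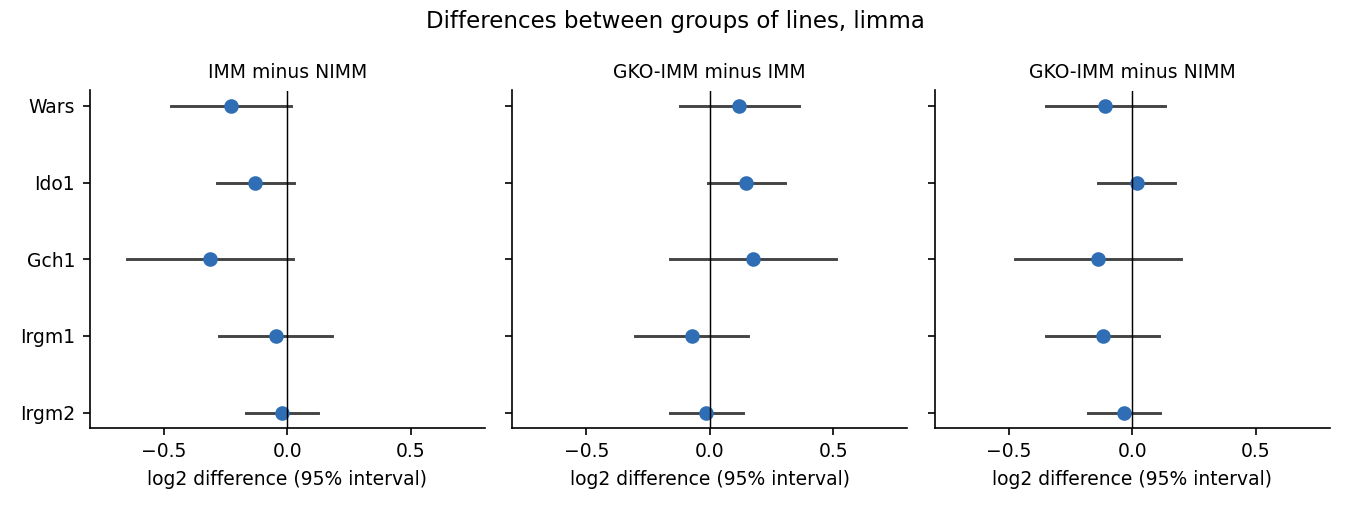
Log2 differences of the 5 genes tested, with limma's 95% intervals, in 3 comparisons of 3 lines each; points right of 0 are higher in the group named first. Every interval crosses 0, and the widest are those of Gch1.

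Against the parent, which has 1 array and so allows no test, Irgm1 was lower in all 9 established lines, by a mean log2 difference of -0.56 (range -0.79 to -0.33). Of all genes tested, 12.4% were below the parent in all 9 lines. The cluster shared by Gbp2 and Gbp1 was also below the parent in all 9, at -0.39 (range -0.73 to -0.16). Wars (0.22, range 0.02 to 0.63), Ido1 (0.17, range 0.03 to 0.36) and Irgm2 (0.06, range 0.0025 to 0.21) were above it in all 9 lines, as were 13.5% of all genes. Gch1 was above it in 7 lines and below in 2. All these differences share the parent's single value. The summed leukocyte markers were 266 to 285 in GKO-IMM, 278 to 290 in IMM and 275 to 309 in NIMM lines and 368 in the parent, with 2 of 9 markers above background (Cd68 and Nkg7). Cd68, a lysosomal protein, was at 47.2 to 78.3 in the established lines and 146 in the parent, while Ptprc was at background throughout. The part of these markers in the Irgm1 difference was not tested. Fibroblast markers summed to 306 to 325 in GKO-IMM, 330 to 345 in IMM and 310 to 356 in NIMM lines, and 256 in the parent (4 of 7 above background). Of these, Pdgfrb read 100 to 155 in the established lines and 43.8 in the parent. Col1a2 went the other way, at 38.6 to 54.6 in the established lines and 57.8 in the parent. Endothelial markers summed to 123 to 125, 125 to 127 and 119 to 123 in the same order, and 118 in the parent (2 of 4).

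Most genes of interferon-gamma signalling were measurable in the lines. Of 17 such genes all 17 were tested and 16 were above background, and 0 passed in any comparison. The 16 include Ifng itself, which at 30.6 to 34.8 lay on both sides of the background threshold of 31.6. Ifngr1, the ligand-binding receptor chain, read 273, 245 and 242 in GKO-IMM, 261, 254 and 276 in IMM and 220, 227 and 243 in NIMM lines, and 195 in the parent. IMM was 0.20 ± 0.07 SE above NIMM (limma adjusted p = 0.255), and Pias1, a SUMO ligase, was 0.16 ± 0.05 above (adjusted p = 0.242). Between GKO-IMM and IMM lines the smallest limma p-values were those of Jak2 (-0.21 ± 0.07, adjusted p = 0.171) and Usp18, a brake on type I interferon signalling (-0.23 ± 0.08, adjusted p = 0.187). The list's medians were 0.06 for IMM minus NIMM and -0.03 for GKO-IMM minus IMM. Of 22 other interferon-gamma targets 18 were tested, 15 of these were above background and 0 passed. In IMM against NIMM lines Psmb9, an immunoproteasome subunit, was at -0.18 ± 0.07 SE (limma adjusted p = 0.276), with a mean intensity of 31.1, under the background threshold. Ciita, the activator of MHC class II genes, was at 0.19 ± 0.10 in the same comparison (limma adjusted p = 0.406). In GKO-IMM against IMM lines Nmi, an interferon-inducible adaptor, was at -0.16 ± 0.07 (limma adjusted p = 0.260), and Parp14, a mono-ADP-ribosyltransferase, at 0.15 ± 0.07 (adjusted p = 0.268). This list's medians were 0.04 and -0.04. Its farthest gene in both was Cxcl10, at 0.63 ± 0.42 SE (limma adjusted p = 0.527) and -0.60 ± 0.42 (adjusted p = 0.516). Without NIMM 4 the IMM minus NIMM difference of Cxcl10 was 1.12. Cxcl10 read 181, 159 and 176 in GKO-IMM, 151, 488 and 237 in IMM and 119, 119 and 335 in NIMM lines, and 48.3 in the parent. At an unadjusted limma p under 0.05 the signalling list had 2 of 17 genes in IMM minus NIMM and the other targets 1 of 18, where 14.1% of all genes reached it. In GKO-IMM minus IMM they had 3 of 17 and 4 of 18, where 17.2% of all genes did.

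Among the 10 pairs of the 5 genes tested, Pearson's r over 9 lines ran from -0.57 (Wars and Irgm1) to 0.39 (Wars and Gch1). Without NIMM 4 these were -0.06 and -0.18, and Wars and Ido1, at 0.18 over 9 lines, then gave the highest r, 0.55. The genes whose levels across the 9 lines were most like each member's, out of all tested, are given as a description: the lines share groups, and a high r is readily found among this many genes. For Wars they were Zfp768, Il17ra and Vps37c (r = 0.957, 0.953 and 0.947), which were 0.761, 0.908 and 0.828 without NIMM 4. For Ido1 they were Hs6st1, Agpat4 and Pdgfa (0.942, 0.917 and 0.882). For Irgm1 they were Fabp5, Htr6 and Birc5 (0.957, 0.955 and 0.939), and for Gch1 they were Hfe, Hscb and Hmgxb4 (0.954, 0.951 and 0.948).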

How the data were processed

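Total RNA of 10 lines was measured on 1 array each. The deposited intensity columns are raw values per the file headers, are linear and give 1 value a transcript cluster. The deposited normalized columns hold log2 values that equal log2 of those intensities minus each transcript cluster's median (largest difference 2.23e-06). How the authors corrected background and summarized probes, and with what software, is not stated in the labels or headers. Log2 intensities were analysed with no further normalization. Of 33793 transcript clusters, 24732 carried 1 symbol, 2305 several and 6756 none. Symbols were updated through a RefSeq gene table (GRCm38.p6), which also gave positions: 20206 were current, 2112 updated and 1075 in neither form. Genes under percentile 30 of the mean over the 9 established lines (log2 4.74) were left out, leaving 16352 of 23360.

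The 9 established lines were fitted in 3 groups with limma 3.58.1 (lmFit, eBayes) in R 4.3.3, with 6 residual and 5.25 prior degrees of freedom. Adjusted p-values are Benjamini-Hochberg over all genes tested, two-sided, with a threshold of 0.05. The number of arrays limits the precision. Summaries used Python 3.11.15 with pandas 2.3.3 and numpy 2.4.6. Promoter windows are RefSeq's. Promoters of Wars, Ido1 and Iigp1 were not analysed here. Named genes are the 9 members, the 2 genes with the smallest p of a list in a comparison it is described for (fewer for the GBP and IRG lists, of which 3 and 2 genes were tested), and the 3 with the highest r to each member above background. Gbp10, Gbp1, Cxcl10, Ifng and some cell type markers are named besides. The members and lists were chosen with earlier results of these data known. Alternatives covered normalization, filter, transcript clusters per gene, variance prior, array weights, samples fitted, line number as a block, background offset and each line left out.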

Additional observations from a re-analysis of the deposited data

How the results depend on the processing

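Of 20 differences of the 5 genes tested, 1 passed in 1 alternative: Irgm1 in GKO-IMM minus NIMM without NIMM 4. There the number of members that passed ranged from 0 to 1 over the lines left out. The counts of all genes that passed moved far more. IMM minus NIMM had 70, and 33 with no filter, 45 with a filter at percentile 50, 167 with array weights, 13 with only the groups compared, 29 with the line number as a replicate block, 33 with 48 added to the intensities, and 21 to 76 with lines left out. GKO-IMM minus IMM had 191, and 91 with no filter, 1037 with array weights, 976 with only the groups compared, 586 with the block, 91 with 15 subtracted, and 30 to 1208 with lines left out. GKO-IMM minus NIMM had 20, and 12 with quantile normalization, 9 with no filter, 7 at percentile 50, 1217 with array weights, 915 with the block, 5 with 48 added, and 6 to 1264. IMM against the mean of the others had 132, and 82 with no filter, 265 with array weights, 52 with 15 subtracted, and 39 to 304. The F test had 167, and 101 with no filter, 1431 with array weights, 927 with the block, 102 with 15 subtracted, 100 with 48 added, and 32 to 1442. The highest count with a line left out came without NIMM 4 in all 5 tests; the lowest came without NIMM 3 in IMM minus NIMM and without GKO-IMM 3 in the other tests (a tie of several lines in GKO-IMM minus NIMM). The cause was not tested. Signs turned for 9 of the 20 differences, the largest being 0.17. Wars in GKO-IMM minus NIMM was 0.0526 with the block and -0.186 to 0.0437 with lines left out, and Ido1 there was -0.0062 with array weights and -0.0450 to 0.0763. Irgm1 in IMM against the mean of the others was -0.0082 with medians centred, -0.0465 with array weights, -0.0072 with the block and -0.0584 to 0.0563, and in IMM minus NIMM -0.189 to 0.0400. Irgm2 in GKO-IMM minus IMM was 0.0031 with quantile normalization, 0.0011 with medians centred, 0.0244 with the block and -0.0305 to 0.0083. With lines left out it was -0.0568 to 0.0453 in IMM minus NIMM, -0.0700 to 0.0321 in GKO-IMM minus NIMM and -0.0253 to 0.0293 in IMM against the mean of the others, and Gch1 in GKO-IMM minus IMM was -0.0177 to 0.303. Line numbers do not pair the lines: deviations of same-numbered lines correlated at -0.135 to 0.120, so a call under the block has no pairing behind it. Only NIMM 4 has the number 4 and only IMM 8 the number 8. The block therefore takes NIMM 4 and IMM 8 out of the differences, much as leaving them out does. For genes near background, signal over background and 3 lines a group limit what can be told.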
